A study of Mus musculus with 173 samples.

Results

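The 7 genes described here, Emx1, Emx2, Lhx2, Pax6, Nr2e1, Nr2f1 and Otx1, encode transcription factors that pattern the embryonic forebrain. They were taken as named rows of the expression table, 7 of the 23307 genes listed, and 7 of 7 were among the 12007 genes tested, those with a TPM of 1 or more in 5% of libraries. TPM is a length-scaled share of a library's transcripts. The libraries were made from single cells of the dentate gyrus, the hippocampal region where neural stem cells go on producing granule neurons, of C57BL/6 mice aged 8 to 12 weeks. The study profiled quiescent neural stem cells and their immediate descendants. The 172 libraries fell into the title classes C (the libraries not in N or R), N (26) and R (4), and the labels do not spell these letters out. The strain, tissue and age were shared by the 3 classes, and no treatment was named.

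The labels name no animal, so the cells cannot stand as replicates. Each class counts as 1 sample and no test was made. SDs below are between libraries. TPM keeps no depth, so the depth behind each value is unknown. Libraries had 3734 ± 930.2 genes at a TPM of at least 1 in C, 3512 ± 939 in N and 3199 ± 618 in R. The median TPM of the eCFP reporter row was 8739 in C, 44.6 in N and 11.99 in R, and the mouse line that carries this reporter is not named in the sources used here. The neural stem cell marker list, 15 genes, had a mean log2(TPM + 1) of 6.08 ± 1.47 in C, 2.82 ± 0.96 in N and 3.94 ± 0.96 in R. The mature neuron list, 10 genes, averaged 1.15 ± 1.03 in C, 1.29 ± 0.98 in N and 6.99 ± 0.41 in R. Lists for precursors of oligodendrocytes and for endothelial cells averaged 0.60 ± 1.32 and 0.40 ± 0.79 in C, against 2.31 ± 2.71 and 2.03 ± 2.72 in N. The classes therefore differed in cell type makeup as well as in the factors, and the part of that makeup in the differences below was not tested.

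In the embryo, graded expression of such factors in the ventricular zone sets regional identity along the axes of the cortex. Emx1, Emx2 and Otx1 are homeodomain proteins related to fly head gap genes (empty spiracles and orthodenticle in Drosophila), and Emx2 is needed for the dentate gyrus to form in mice. Lhx2 is a LIM homeodomain protein that selects cortical over hem identity, Pax6 is a paired-domain and homeodomain protein of radial glia, Nr2e1 (also called Tlx) is an orphan nuclear receptor that maintains adult neural stem cells, and Nr2f1 (also called COUP-TFI) is an orphan nuclear receptor of caudal cortical identity.

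The genes are protein-coding and lie apart in the mouse genome (GENCODE, GRCm38). Emx1 is at chr6:85187438-85204462, Emx2 at chr19:59458372-59465357, Lhx2 at chr2:38339281-38369733 and Pax6 at chr2:105668900-105697364, on the + strand. Nr2e1 is at chr10:42561963-42583632, Nr2f1 at chr13:78188973-78199757 and Otx1 at chr11:21994764-22002897, on the - strand.

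The promoters of the paralogues Emx1 and Emx2 are shown because these related genes were detected at like shares in C. The sequences are from RefSeq (GRCm38.p6, a later build than the mm9 of the expression table, matched by symbol). They run 250 bases before to 50 after the RefSeq start, on the + strand, at chr6:85187681-85187980 for Emx1 and chr19:59458440-59458739 for Emx2. The GENCODE genes start earlier, at 85187438 for Emx1 and 59458372 for Emx2, so both windows lie inside them. These windows are therefore promoters by the RefSeq start only. Capitals mark the homeodomain core TAATTA, which is its own reverse complement, and the GC box, GGGCGG or CCGCCC on the opposite strand.
Emx1: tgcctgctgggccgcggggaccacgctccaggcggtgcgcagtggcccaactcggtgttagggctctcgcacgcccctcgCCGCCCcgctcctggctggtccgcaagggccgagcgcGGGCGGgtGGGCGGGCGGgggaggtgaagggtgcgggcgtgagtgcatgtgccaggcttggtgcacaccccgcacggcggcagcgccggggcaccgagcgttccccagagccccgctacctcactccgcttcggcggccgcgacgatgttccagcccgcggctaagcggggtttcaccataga
Emx2: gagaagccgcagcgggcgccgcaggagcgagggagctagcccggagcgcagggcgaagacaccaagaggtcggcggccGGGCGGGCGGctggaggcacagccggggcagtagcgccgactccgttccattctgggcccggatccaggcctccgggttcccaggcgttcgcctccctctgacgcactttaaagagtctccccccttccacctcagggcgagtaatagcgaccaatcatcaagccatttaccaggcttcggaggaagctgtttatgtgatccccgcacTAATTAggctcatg
The Emx1 promoter had 74% GC, 4 GC boxes and 0 TAATTA cores, and the Emx2 promoter had 64.3% GC, 2 GC boxes and 1 TAATTA core, which begins at base 37 after the start. Of 32851 promoters of this length, 5.29% held TAATTA and 35.7% held a GC box, and the median GC content was 52.7%. TAATTA was not found in the promoters of Lhx2, Pax6, Nr2e1 and Nr2f1. A match to these letters describes the sequence and does not show a bound site. In the GENCODE annotation of GRCm38, the antisense gene Emx2os, on the - strand of chromosome 19 from 59425104 to 59458635, begins inside this Emx2 window.

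Lhx2 and Nr2f1 were the most widely detected of the 7 factors in C, and Otx1 the least. Lhx2 reached a TPM of 1 in 77.5% of C libraries (exact 95% interval 69.7 to 84.05), Nr2f1 in 72.5% (64.4 to 79.7) and Pax6 in 54.2% (45.7 to 62.6). The intervals of Lhx2 and Nr2f1 overlap, and that of Pax6 lies below both. Emx2 was detected in 50 (35.2%, 27.4 to 43.7), Emx1 in 47 (33.1%, 25.4 to 41.5) and Nr2e1 in 46 (32.4%, 24.8 to 40.8), which are not separable by counting error. Otx1 was detected in 22 (15.5%, 9.97 to 22.5). These intervals cover counting error over libraries, not differences between animals.

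Lhx2 was higher in C than in N, by more than the other factors on the mean log2(TPM + 1) scale. With the log2 of mean TPM its difference was 2.45, above that of Emx2 (0.15) and below those of the other 5. Its TPM in C ran from 0 to 1598 with a median of 42.8. In N it ran from 0 to 423.1 with a median of 0.875, and in R the 4 libraries had 0, 8.97, 47.3 and 0.78 TPM. Most N libraries lay far below the C median, but N8 (423.1 TPM) and N11 (318.9 TPM) lay well inside the C range, and the next N library had 5.85 TPM. On the log2(TPM + 1) scale the mean of Lhx2 was 4.83 ± 3.38 in C, 1.46 ± 2.27 in N and 2.44 ± 2.53 in R, a difference of 3.38 for C minus N and 2.40 for C minus R. A TPM of 10 was reached by 89 C libraries (62.7%) and 2 of 26 N libraries (7.69%). N11 had a stem cell list mean of 6.20 and an astrocyte list mean of 6.48, and N8 a mean of 6.33 for the list of neuroblasts and immature granule neurons.

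**Figure D1:**
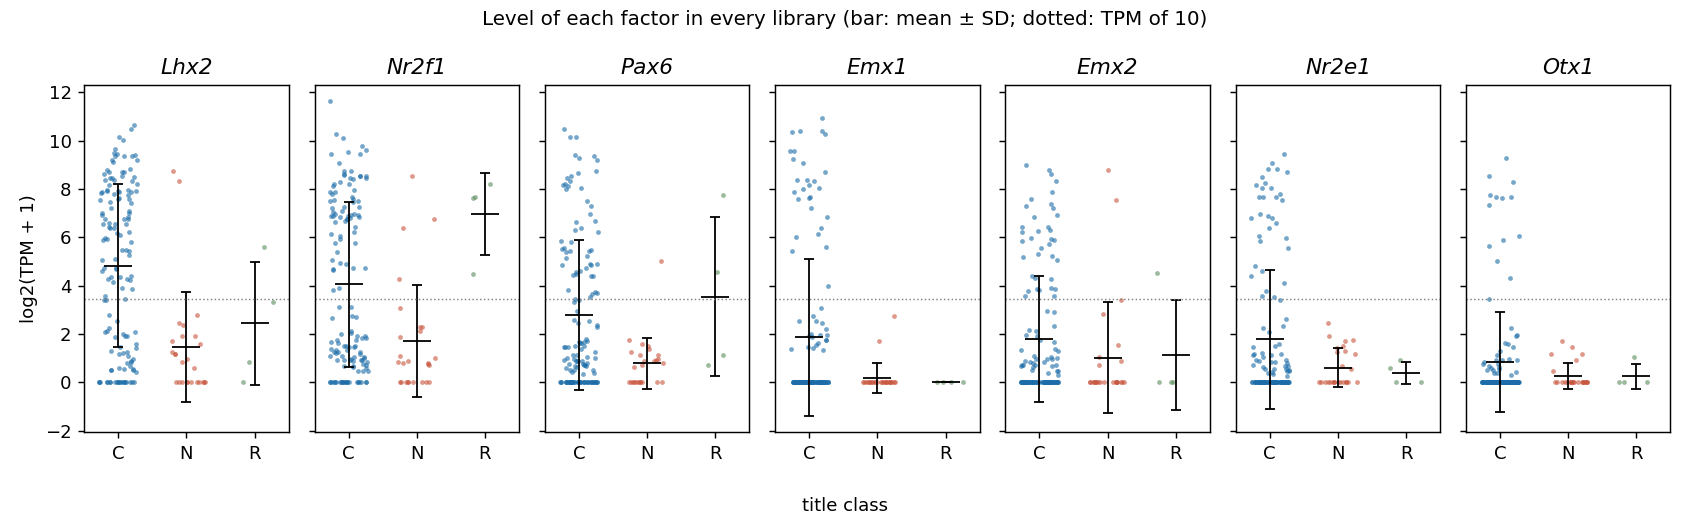
Level of each factor on the log2(TPM + 1) scale in every library of the title classes C, N (n = 26) and R (n = 4); each point is a library, bars are the mean ± SD between libraries, and the dotted line is a TPM of 10. Nr2f1 is high in 4 of 4 R libraries (21.1 to 290.0 TPM), while Emx1 is listed at 0 in those 4 (exact upper limit 60.2%).

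Nr2f1 was lower in C than in R and higher in C than in N. It ran from 0 to 3214 TPM in C (median 6.61) and from 0 to 365.6 TPM in N (median 0.76), and the 4 R libraries had 21.1, 290.0, 195.5 and 199.96 TPM. The C and R ranges overlap, since 69 C libraries reached a TPM of 10, but each of the R libraries lay above the C median. The means were 4.05 ± 3.42 in C, 1.71 ± 2.33 in N and 6.98 ± 1.70 in R, so that C minus N was 2.34 and C minus R was -2.93. In N, 4 of 26 libraries reached a TPM of 10, namely N11 (365.6), N2 (108.1), N8 (82.9) and N14 (18.3). With the mean taken before the log the C minus R difference was -0.33, below the size used here as a call, a difference of at least 1 in either direction.

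Pax6 was higher in C than in N, and its comparison with R depended on which R libraries were used. It ran from 0 to 1431 TPM in C (median 1.67), from 0 to 31.8 TPM in N (median 0.69), and had 1.17, 0.65, 211.7 and 22.97 TPM in R1 to R4. A TPM of 10 was reached by 51 C libraries (35.9%) and 1 N library, N11. The means were 2.78 ± 3.10 in C, 0.79 ± 1.06 in N and 3.54 ± 3.29 in R, a C minus N difference of 1.99 and a C minus R difference of -0.76. Without R3 the C minus R difference was 0.64. It was -1.57 without R1 and -1.70 without R2, both past the size called.

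Emx1 was high in a minority of C libraries and low or listed at 0 in N and R. Its C values ran from 0 to 1978 TPM with a median of 0, and where it was detected its median was 68.5 TPM. In N it was detected in 2 of 26 libraries, N5 at 5.71 and N18 at 2.31 TPM. It was listed at 0 in 4 of 4 R libraries, for which the exact upper limit is 60.2%, above the 33.1% of C. The means were 1.86 ± 3.26 in C and 0.17 ± 0.62 in N, a difference of 1.69 (0.97 with a pseudocount of 10), and 10 C libraries held 76.01% of its summed TPM. A TPM of 10 was reached by 28 C libraries (19.7%) and by 0 of 26 N libraries, for which 3 counts allow a share of up to 11.5% in N (exact upper limit 13.2%). An exact 0 can be a failed estimate in these files, in which 78.5% of values are 0 and Gapdh, used by every cell, is listed at 0 in 2 libraries.

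Emx2, the paralogue of Emx1, had a C minus N difference under the size called. It ran from 0 to 506.5 TPM in C (median 0) and from 0 to 433.8 TPM in N (median 0), and was at 21.9 TPM in R2 and at 0 in the other R libraries. It was detected in 50 C libraries (35.2%) and 6 of 26 N libraries (23.1%), with N13 (433.8) and N1 (183.0) at the top of N. The means were 1.78 ± 2.60 in C and 1.03 ± 2.28 in N, a difference of 0.75. Its mean TPM was 27.2 in C and 24.5 in N, a ratio of 1.11. N1 and N13 fell in the oligodendrocyte lineage-like cluster, with means of 4.78 and 0.56 for the list of oligodendrocyte precursors, and N13 had 3.20 for the list of neuroblasts. The difference was past the size called without N13, at 1.06, without N1, at 1.01, among libraries with at least 3000 genes detected, at 1.13, and with a pseudocount of 0.1, at 1.29.

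Nr2e1 and Otx1 had like shares in C and N at a TPM of 1, and high values of both were found in C. Nr2e1 was detected in 46 C libraries (32.4%) and 9 of 26 N libraries (34.6%, 17.2 to 55.7), yet its N values stopped at 4.51 TPM and its C values ran to 693.8 TPM. A TPM of 10 was reached by 32 C libraries (22.5%, 15.95 to 30.3) and 0 of 26 N libraries, for which 3 counts allow up to 11.5% (exact upper limit 13.2%). The means were 1.78 ± 2.88 in C, 0.60 ± 0.80 in N and 0.38 ± 0.46 in R, a C minus N difference of 1.18. That difference was 0.93 after rescaling of the libraries and 0.77 with a pseudocount of 10, both under the size called. Otx1 was detected in 15.5% of C and 15.4% of N libraries, with highest values of 619.6 and 2.26 TPM, and a TPM of 10 was reached by 14 C libraries (9.86%) and 0 of 26 N libraries, a difference not detectable with 26 libraries, since the exact upper limit in N is 13.2%. On the log2 scale it averaged 0.84 ± 2.08 in C and 0.26 ± 0.53 in N, a difference of 0.57.

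**Figure D2:**
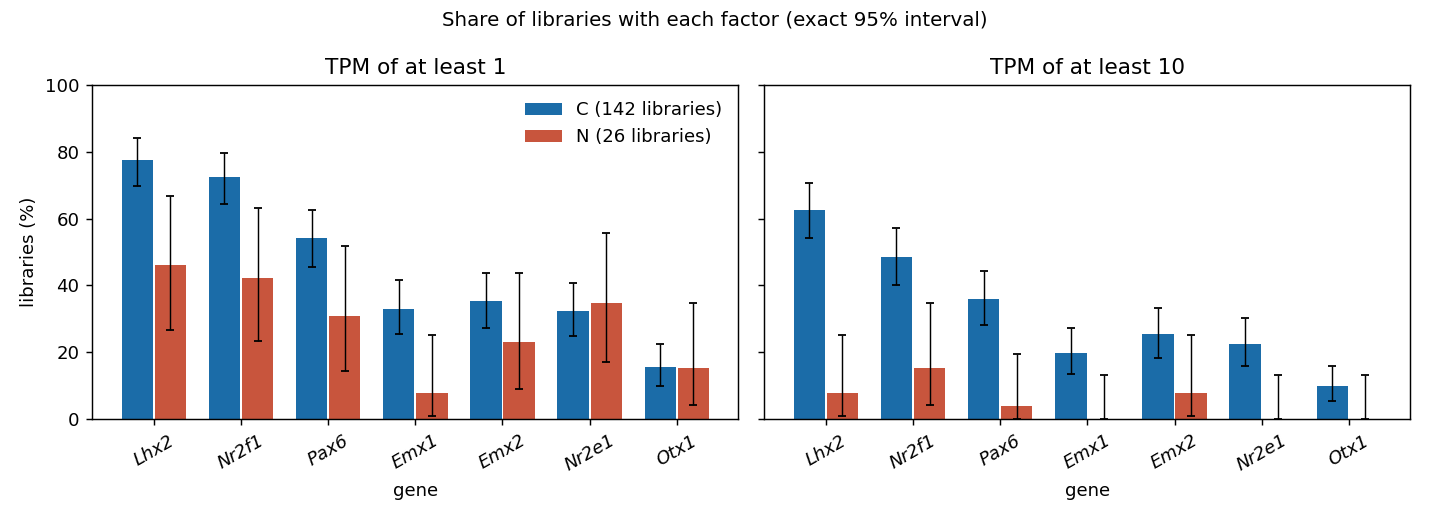
Share of C and N (26) libraries with each factor at a TPM of at least 1 (left) and at least 10 (right), in percent; error bars are exact 95% intervals for counting error. At a TPM of 1 Nr2e1 is level (32.4% of C, 34.6% of N), while at a TPM of 10 it is 22.5% of C and 0% of N.

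In C minus N, 5 of 7 factors were called higher and 0 lower, against 9.98% of the 12007 genes called higher and 4.19% called lower. The median difference was 1.69 over the 7 factors and 0.17 over all genes tested. The filter admits genes mainly through C, the largest class, and the factors were chosen with earlier results of these data known. These counts and medians are therefore a description. In C minus R, 3 factors were called higher (Emx1, Lhx2 and Nr2e1) and 1 lower (Nr2f1), against 22% and 20.9% of genes. Emx1 and Nr2e1 were detected in 0 of 4 R libraries, for which the exact upper limit is 60.2%, above their shares in C. With only the libraries of the stem cell-like clusters and of cluster 3 (described below), which leaves 5 N libraries, C minus N was 4.12 for Lhx2, 3.60 for Nr2f1, 2.26 for Pax6, 1.97 for Emx1, 1.64 for Emx2, 1.34 for Nr2e1 and 0.38 for Otx1. Those 5 N libraries still carry genes of other cell types: N10 and N15 had means of 7.67 and 7.20 for the list of oligodendrocyte precursors, N17 and N23 had 11.05 and 6.23 for the oligodendrocyte list, and N9 had 3.92 for the list of neuroblasts. N11 was left out, since it fell in the oligodendrocyte lineage-like cluster, although its stem cell list mean was 6.20 and its precursor list mean 1.27. It had 318.9 TPM of Lhx2, 365.6 of Nr2f1 and 31.8 of Pax6. The larger differences for these factors are therefore not a comparison of like cells.

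Clusters of libraries were made without the factors and without the marker lists, and named from the lists. Emx1 averaged highest in cluster 3, which is led by cell cycle genes, at 3.46 ± 3.61 (13 of 24 libraries), against 1.57 ± 3.13 (29.6% of libraries) over the stem cell-like clusters 1, 2, 4 and 5. Lhx2 averaged 6.12 ± 2.59 in cluster 3 (23 of 24) and 4.62 ± 3.44 in the stem cell-like clusters (75.7%). Pax6 was highest in cluster 5, at 4.05 ± 3.53 (11 of 15), with 3.92 in cluster 3. Emx2 was also highest in cluster 5, at 3.14 ± 2.61 (10 of 15). No Otx1 was detected in those 15 libraries, but the exact upper limit of 21.8% is above its 17.4% over the stem cell-like clusters. Nr2f1 had its highest mean in the neuron-like cluster 8, at 4.68, a cluster of 9 libraries that holds 4 of 4 R libraries, with 4.53 in the stem cell-like cluster 2. In the vascular-like cluster 6 the means of the 7 factors ran from 0.13 for Otx1 to 1.18 for Nr2f1. The astrocyte list averaged between 3.002 and 3.84 in the stem cell-like clusters, so that name does not separate stem cells from astrocytes.

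**Figure D3:**
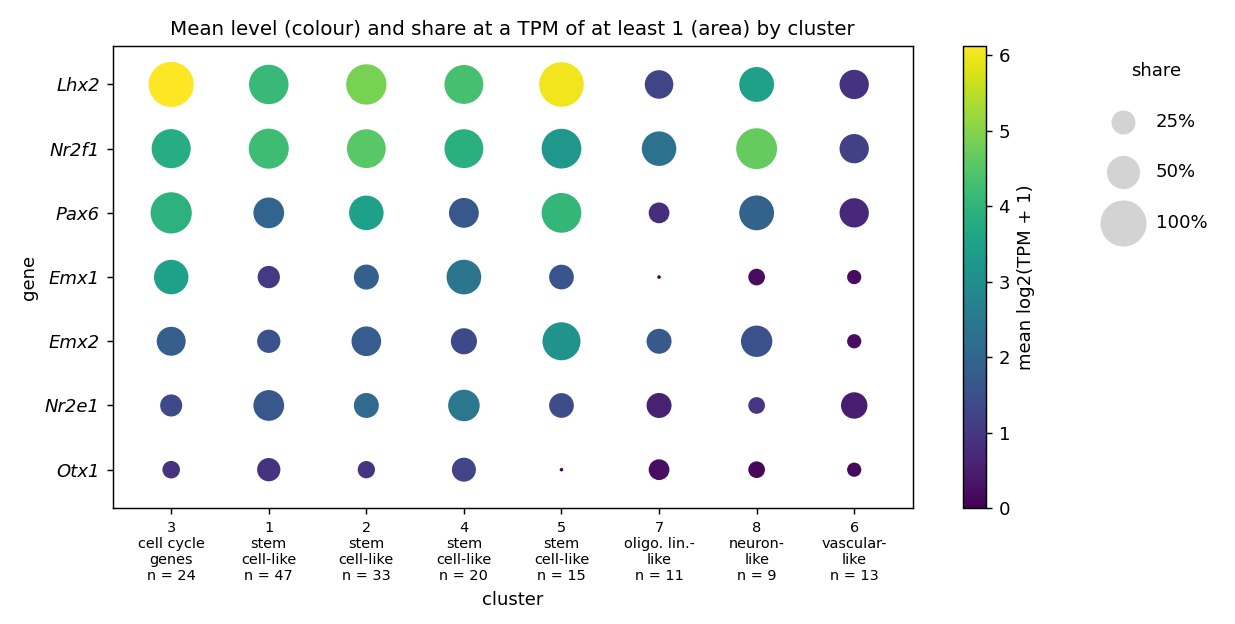
Mean log2(TPM + 1) (colour) and share of libraries at a TPM of at least 1 (area) of each factor in 8 clusters, with the number of libraries under each name; "oligo. lin." is oligodendrocyte lineage. Lhx2 is highest in cluster 3 at 6.12, and Emx1 is not detected in the 11 libraries of the oligodendrocyte lineage-like cluster (exact upper limit 28.5%).

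Within C, the factors were weakly correlated with the stem cell list and the cycling list. The correlation (Spearman's rho over C libraries that differ in the number of genes detected) with the stem cell list mean was 0.24 for Emx2, 0.19 for Nr2f1, 0.18 for Nr2e1, 0.09 for Otx1, 0.08 for Pax6, 0.06 for Lhx2 and 0.01 for Emx1. Among genes of that list, each set against the rest of it, Slc1a3 and Hopx had 0.55 and 0.55, Gfap 0.32 and Sox2 0.06. With the cycling list, 36 genes of S phase, G2 and mitosis, rho was 0.23 for Pax6, 0.11 for Lhx2 and between -0.08 and 0.06 for the other 5, whereas Mki67 and Top2a had 0.62 and 0.66. At a rho of at least 0.2, 1 factor was called with the stem cell list (5.45% of genes) and 1 with the cycling list (13.8% of genes). At or below -0.2, 0 factors were called with either list (2.82% and 1.77% of genes). These correlations carry no p. Pax6 also had a rho of 0.24 with the number of genes detected, and its rho with the cycling list was 0.14 after ranks were adjusted for that number.

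**Figure D4:**
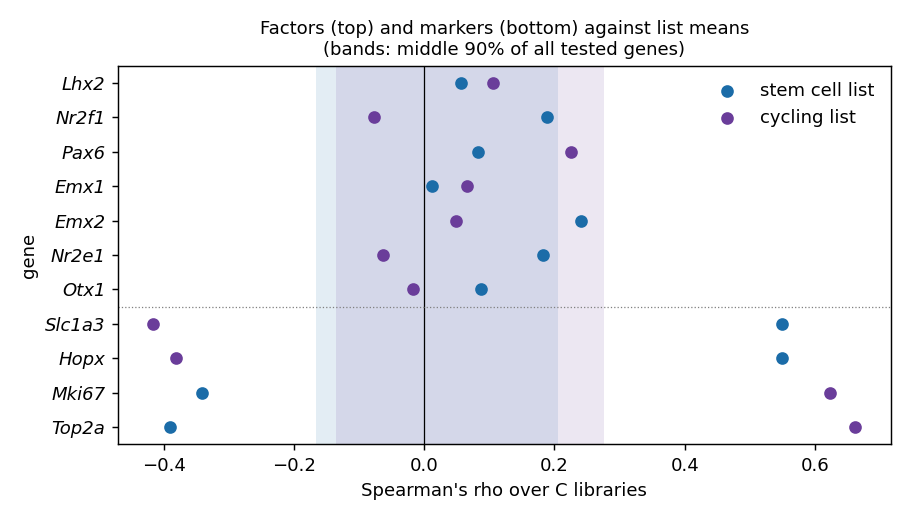
Spearman's rho of each factor (above the dotted line) and of 4 marker genes (below it) with the stem cell list mean and the cycling list mean over the C libraries; shaded bands hold the middle 90% of all tested genes. The factors lie between -0.08 and 0.24, and the markers reach 0.55 for the stem cell list and 0.66 for the cycling list.

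Pax6 and Emx1 were higher in C libraries with a cycling list mean of at least 2 (29 libraries, 15 of the C libraries lying between 1.5 and 3). Pax6 averaged 3.96 ± 2.92 in cycling and 2.48 ± 3.08 in other C libraries, and was detected in 79.3% of cycling and 47.8% of other C libraries, a difference of 1.49. Emx1 averaged 2.69 ± 3.36 in cycling and 1.64 ± 3.21 in other C libraries, and was detected in 48.3% of cycling and 29.2% of other C libraries, a difference of 1.05. These 2 of 7 calls stand against 15.3% of genes called higher and 4.10% called lower. The other 5 factors differed by between -0.27 and 0.76, and Lhx2 was the highest of them. With a cycling list minimum of 1.5 the difference was 0.92 for Pax6 and 0.58 for Emx1, both under the size called. When TPM was averaged before the log, the Pax6 difference was 0.058 and the Emx1 difference had the opposite sign, -0.65. The largest Emx1 value was 534.1 TPM in cycling and 1978 TPM in other C libraries. Cycling libraries had 3929 ± 866.6 genes detected and other C libraries 3684 ± 942.9, and the part of this in the differences was not tested.

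**Figure D5:**
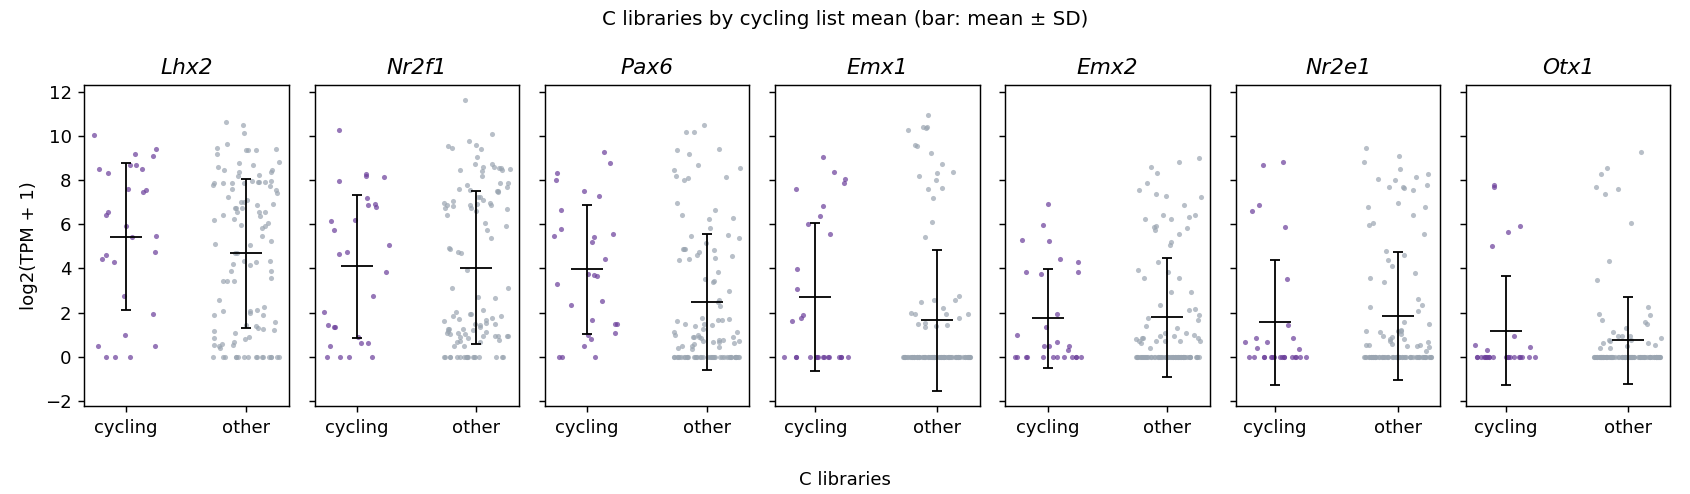
Level of each factor on the log2(TPM + 1) scale in cycling (n = 29) and other C libraries; each point is a library and bars are the mean ± SD. Pax6 averages 3.96 in cycling and 2.48 in other libraries, and the spreads overlap for each factor.

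The 7 factors showed little correlation with one another in C. Over the 21 pairs, rho ran from -0.05 to 0.18 with a median of 0.06, and 0 reached 0.2. Detection ran from 15.5% of C libraries for Otx1 to 77.5% for Lhx2, so many values tie at or near 0. A low rho here therefore does not show that the factors vary independently. Emx1 and Emx2 were both detected in 13 libraries, Emx1 alone in 34, Emx2 alone in 37 and neither in 58. C libraries held 3.20 ± 1.36 of the 7 factors, N libraries 2 ± 1.41 and R libraries 2.75 ± 0.5. C121 held 7 of 7 and C139 held 0 of 7. Among C libraries with at least 1 factor the number was higher where more genes were detected. The median ran from 3099 genes in the 15 C libraries with 1 factor to 5594 genes in the library with 7. C139, with 0 factors, went against this, with 3968 genes. No gene of 6314 searched reached a rho of 0.4 with a factor.

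Antisense genes overlap 3 of the factors over a part of their length in the GENCODE annotation, by 264 bases for Emx2 and 1431 for Pax6. The sources used here do not say whether counting used strand, so reads from the shared stretches cannot be told apart. Emx2os was detected in 80 C libraries, 34 of them with Emx2. In C, Emx2 was found in 42.5% of libraries with Emx2os and 25.8% of those without, with a rho of 0.10. The order was the opposite in N, at 12.5% (1 of 8 libraries) and 27.8% (5 of 18), which rests on few libraries. C libraries with Emx2os had a median of 3931 genes detected and those without it 3327, and the part of this in the shares was not tested. A830082K12Rik, which overlaps Nr2f1 by 1741 bases, was detected in 97 C libraries and in 0 of 4 R libraries, and 4 of 4 R libraries had Nr2f1. Nr2f1 was found in 72.2% of C libraries with A830082K12Rik and 73.3% of those without, and in 60% (9 of 15) and 18.2% (2 of 11) in N. N libraries with A830082K12Rik had a median of 3709 genes detected and those without it 3090, and the part of this in the N shares was not tested. Pax6os1 was detected in 26 C libraries, with a rho of -0.05 to Pax6. Pax6 was found in 53.8% of C libraries with Pax6os1 and 54.3% of those without.

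Of 16 other factors of the dorsal telencephalon and hippocampus, 15 passed the filter, and 5 were called higher and 1 lower in C than in N (9.98% and 4.19% of all genes tested), with a list median of 0.79. Zbtb20, a zinc finger protein of hippocampal identity, averaged 4.96 in C, 2.32 in N and 0.50 in R. Tcf4 averaged 7.89 in C and 6.38 in N. Gli3 and Fezf2 were also called higher, by 2.45 and 2.77, and Tbr1, a factor of early cortical neurons, was lower by 1.30 (0.20 in C against 1.5 in N). Of 14 factors of the ventral telencephalon 3 passed the filter and 0 were called in C minus N (median -0.07), and 5 were detected in no library. Of 26 factors of the diencephalon, midbrain and hindbrain 4 passed and 0 were called (median -0.13), and 8 were detected in no library. Nkx2-1, a ventral factor, averaged 1.13 in C and 1.19 in N.

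Of 18 cofactors, 15 passed and 2 were called higher in C than in N (median 0.28), a share close to the 9.98% of all genes. Among them, Ssbp2, which binds LIM-domain complexes, averaged 2.54 in C and 1.23 in N. Of 9 close relatives, 4 passed and 0 were called (median -0.07), and Nr2f2, the paralogue of Nr2f1, averaged 2.76 in C, 2.84 in N and 0.04 in R. Of 12 measured genes with a described link to a factor, 9 passed, 3 were called higher in C than in N and 1 lower (median 0.52). Fabp7, a lipid carrier of radial glia linked to Pax6, averaged 11.34 in C and 5.49 in N. Gfap averaged 5.44 in C and 1.57 in N, Sox2 3.04 in C and 1.40 in N, and Vcan 0.92 in C and 1.96 in N. The 3 called higher, Fabp7, Gfap and Sox2, also belong to the neural stem cell list. Their calls are therefore not separate from that list's difference between C and N. In C minus R, 4 dorsal factors were called higher and 3 lower, as were 3 and 4 cofactors and 2 and 1 linked genes, and 1 close relative and 1 factor of the diencephalon, midbrain and hindbrain were called higher. For dorsal factors and cofactors these counts are near the shares of all genes, 22% higher and 20.9% lower.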

How the data were processed

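Single-cell RNA-seq libraries of the dentate gyrus were prepared by NuGEN Ultralow V2, per the labels' protocols. TPM per gene was deposited by the authors and estimated with RSEM against mm9 per the submitters' processing notes. No version, aligner, gene model or cell filter is given in the sources used here. TPM divides reads by transcript length and scales each library to a common total, so a value is a share, and its depth is unknown.

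Libraries were put in classes by the first letter of their titles. There were 173 labelled samples and 172 columns, and 171 columns match 1 title each. The column C27 fits 2 titles and entered C with no number of its own.

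The 7 factors and the gene lists were chosen with earlier results of these data known. A gene needed a TPM of 1 in 5% of libraries. Values are log2(TPM + 1) with a pseudocount of 1, which understates changes of low genes. A difference of at least 1 or a rho of at least 0.2 was called, with no test, since no animal is named. Shares have exact Clopper-Pearson 95% intervals. Ward clustering into 8 groups used 15 principal components of 2000 variable genes, with listed genes left out. Doublets were not called. Named genes were the 7 factors, the 3 genes of each list with the highest mean level, set marker genes, and genes with a rho of at least 0.4 to a factor; Gli3, Fezf2, Tbr1, Vcan and single libraries were named after their values were seen, and a few genes under this rule are not reported here. Promoters came from RefSeq (GRCm38.p6), where 6 of 7 factors matched, and positions from GENCODE (GRCm38). The calculation was tested on simulated data. Python 3.11.15, numpy 2.4.6, pandas 2.3.3 and scipy 1.17.1 were used.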

Additional observations from a re-analysis of the deposited data

Results flagged for a closer look

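In the R libraries, 1 of 4 libraries stood far from the others for 3 factors, measured as its gap to the nearest library over the range. For Emx2 this share was 1, since R2 had 21.9 TPM and the other libraries were at 0. For Otx1 it was 1 too, with R1 at 1.04 TPM and the others at 0, a level near the detection limit used. For Pax6 it was 0.894, with R3 at 211.7 TPM and the next library at 22.97. Chance flags about 1 in 20 groups where values are normally distributed. The shares here were taken on TPM before the log, where high values stretch the range, so that rate need not hold. With 1 of 4 libraries above 0, as for Emx2 and Otx1, the share is 1 by construction.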

How the results depend on the processing

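No paired analysis was possible because the results come from no test and the classes share only title numbers. The 1 called difference that changed sign was Emx1 in cycling minus other C, at -0.65 with the log2 of mean TPM. Among differences under the size called, Pax6 in C minus R was 0.42 with the log2 of mean TPM, and Nr2f1 in cycling minus other C was -0.44 with it, against 0.046 as reported. Emx2 and Nr2e1 in cycling minus other C, and Emx1 and Lhx2 against the stem cell list, also changed sign under some settings, at values near 0. In C minus N, 3 factors were higher with a pseudocount of 10 (Lhx2, Nr2f1 and Pax6). The genes called higher and lower were 20.7% and 8.11% with a pseudocount of 0.1, 3.73% and 1.35% with 10, 35.5% and 17.97% with the log2 of mean TPM, and 5.14% and 2.21% without a filter. With the libraries of the 3 clusters of other cell types left out they were 16.2% and 16.96%. Genes lower were 7.99% after rescaling (which moved the median of all genes by -0.13) and 6.505% with at least 3000 genes per library, and genes higher were 18.6% with a filter at 20% of libraries. Leaving out each N library gave 5 to 6 factors higher, 0 lower, 9.31% to 10.7% of genes higher and 3.99% to 4.77% lower, and the sixth factor was Emx2, without N1 or without N13.

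In C minus R, 2 factors were lower with a pseudocount of 0.1, after rescaling and with at least 3000 genes, Pax6 being the second, and 5 were higher and 0 lower with the log2 of mean TPM. Genes higher were 37.1% (0.1), 7.22% (10), 62.2% (log2 of mean TPM), 11.3% (no filter) and 39.5% (20% filter), and genes lower 13.3% (10) and 11.8% (no filter). Leaving out each R library gave 3 to 4 factors higher, 1 to 2 lower, 22.3% to 26.1% of genes higher and 18.97% to 24.4% lower. Pax6 ran from -1.70 without R2 to 0.64 without R3 and was -1.57 without R1, and Emx2 was 1.78 without R2.

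In cycling minus other C, 0 factors were higher with a pseudocount of 10, the log2 of mean TPM or a cycling minimum of 1.5, 1 after rescaling or with a minimum of 3, and 1 was lower by the log2 of mean TPM. Genes higher and lower were 7.24% and 1.69% (10), 7.92% and 2.11% (no filter) and 23.1% and 7.65% (20% filter), and genes lower 8.41% (0.1) and 31.6% (log2 of mean TPM). With the stem cell list, 3 factors (Emx2, Nr2f1 and Pax6) reached a rho of 0.2 among non-cycling C libraries. Over all C libraries 5.45% of genes reached 0.2, and the share among non-cycling C libraries is not given here. At or below -0.2, the opposite direction, were 0.983% of genes among non-cycling C libraries. Over all C libraries without a filter the shares of genes were 3.01% and 1.62%. With the cycling list, adjusting for genes detected gave 0 factors and 7.48% and 6.43% of genes, and no filter gave 7.50% and 0.995%. Shares of C libraries at a TPM of 10 and of 0.1 were 62.7% and 85.9% for Lhx2, 48.6% and 84.5% for Nr2f1, 35.9% and 69.7% for Pax6, 25.4% and 49.3% for Emx2, 22.5% and 46.5% for Nr2e1, 9.86% and 27.5% for Otx1, and 19.7% at 10 for Emx1. The cause of these shifts was not tested. The settings that leave out each N library, or the C libraries of those clusters, were chosen after seeing the data, and depth, which TPM does not keep, limits what a 0 can show.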
